A study of Mus musculus with 4 samples.

Results

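The 1302 endocardial nuclei described here were picked by their counts of Npr3, Tmem108 and Adgrg6 among 34165 nuclei of postnatal mouse hearts. Endocardial cells are the specialised endothelial cells that line the chambers of the heart and cover its valves, in contact with the blood on one side and with heart muscle on the other. In the growing heart they signal to the myocardium through secreted factors such as the ERBB ligand neuregulin 1 (Nrg1) and bone morphogenetic proteins, and they are known to contribute endothelial cells to part of the coronary vessels. YAP is the transcriptional co-activator that the Hippo kinases hold in check. It binds TEAD factors on DNA, and its well known targets include Ccn1, Ccn2 and Ankrd1.

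The nuclei came from single-nucleus RNA sequencing (10x Genomics 3′ v3 chemistry) of whole hearts of wild-type mice at postnatal day 12. At postnatal day 7 the mice received either saline (control) or AAV9-YAP5SA, a viral vector that carries an active form of YAP under the troponin T promoter (cTNT) of cardiomyocytes. Their mothers were given chow or a high-fat diet (HFD) for 5 days. Each of the 4 groups is 1 library. Series of 4 values always run from the chow to the HFD libraries, control first within each diet. The sources used here do not say how many hearts went into each. Since controls received saline, effects of the virus and of its cargo cannot be told apart. The diet follows the sample titles. The treatment labels of YAP5SA on chow and of control on HFD each name the other diet. If those hold, chow went with saline and HFD with YAP5SA in every library, and vector and diet cannot be told apart. YAP5SA on chow was also the only library of male type: Xist, the RNA that coats the silenced X of females, had 2329, 5, 5411 and 4241 UMIs (unique molecular identifiers, here the counts) in the endocardial nuclei, and the Y-linked gene Ddx3y had 0, 155, 3 and 2.

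The full rule was as follows. A nucleus was kept if it had at least 500 genes, at most 5% mitochondrial UMIs and under 0.5% of UMIs from 6 cardiomyocyte genes (Ttn, Ryr2, Trdn, Ctnna3, Rbm20, Tnnt2). It also needed at least 3 UMIs over 6 endothelial genes (Pecam1, Cdh5, Flt1, Kdr, Ptprb, Emcn) from at least 2 of them. Last, it had to hold at least 3 UMIs over Npr3, Tmem108 and Adgrg6, under 3 UMIs over the lymphatic genes Reln, Mmrn1, Prox1 and Ccl21a, and under 3 UMIs over the fibroblast genes Pdgfra, Col1a1 and Dcn. The rule found 1302 nuclei among 36648 deposited barcodes, of which 34165 passed the limits on genes and mitochondrial UMIs and 4877 were endothelial. The members numbered 145, 408, 369 and 380. Just outside the rule, 10, 25, 18 and 18 nuclei held 2 UMIs of the 3 endocardial genes, and just inside it 13, 20, 16 and 17 held 3. The fibroblast limit left out 118, 152, 276 and 208 nuclei that met every other condition, 754 in all, of which 21, 28, 74 and 57 stood just outside it at 3 fibroblast UMIs, against 40, 60, 119 and 76 members just inside it at 2. The mitochondrial limit left out 98, 127, 123 and 90 nuclei, 30, 43, 35 and 32 of them between 5% and 6%, against 36, 67, 75 and 48 members between 4% and 5%. No member barcode occurred in more than one library.

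The members' UMIs summed to 813018, 1635004, 1876097 and 1417914, with medians of 4864, 3730, 4442 and 3493 UMIs per nucleus, so the libraries with YAP5SA were shallower per nucleus and control on chow carried the smallest sum. Levels below are CPM, the gene's UMIs scaled to a common total over each library's summed members. The median share of mitochondrial UMIs in members was 2.75%, 2.0%, 2.39% and 2.0%, against 0.165%, 0.149%, 0.227% and 0.109% over all nuclei that passed. Macrophage genes, 7 in all, summed to 36.9, 77.1, 59.7 and 57.8 CPM in members, against 8768, 7042, 8867 and 5858 CPM in macrophage nuclei. For 21 cardiomyocyte genes outside the rule the sums were 2831, 2851, 3214 and 2767 CPM, against 2118, 2557, 2350.3 and 2246 CPM in macrophage nuclei. Globin and other red cell genes, 5 in all, summed to 159, 4227, 604 and 179.8 CPM, highest in YAP5SA on chow, and 10 fibroblast genes outside the rule to 855, 761, 1064 and 982 CPM. Yap1 itself stood at 121, 153, 131 and 126 CPM and was no higher with YAP5SA in the cardiomyocyte nuclei either (135, 105, 122 and 119 CPM). The sources used here do not say whether the transgene's transcript is counted as Yap1, so this does not check the labels.

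The rule's own genes are described without a test. Tmem108 had the highest level of the 3 endocardial genes, at 2895, 2974, 3590.4 and 2450.1 CPM. Npr3, the natriuretic peptide clearance receptor, stood at 855, 824, 1257 and 1279 CPM, and Adgrg6, an adhesion G protein-coupled receptor, at 267, 248, 299.6 and 199.6 CPM. Emcn, the endothelial sialomucin endomucin, stood at 1197, 1365, 1208 and 1117 CPM. The median member held 20, 14, 20 and 12 UMIs over the 3 endocardial genes, and 26, 90, 56 and 64 members held UMIs of Tmem108 alone among them.

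Of 17 endocardial markers that the rule did not use, 16 were higher than in vessel endothelium. Their list was chosen with earlier results of these data known, so this is no independent check of the endocardial label. Bmp6, Smad6, Edn1, Ece1 and Nos3 among them are counted again in the signalling and vasoactive lists below. The comparison set members against the 1521 nuclei of the same libraries (324, 359, 466 and 372) that passed the endothelial conditions with 0 UMIs of Npr3, Tmem108 and Adgrg6, called blood vessel endothelial nuclei here, with the library as a block and every gate gene left out. In edgeR's quasi-likelihood test, 2691 of 10708 genes differed at a Benjamini-Hochberg adjusted p below 0.05, which is 25.1% of the genes tested; 1281 (12.0%) were higher and 1410 (13.2%) lower in endocardial nuclei. Of 13 genes of the mitochondrial genome 11 were higher and none lower (median log2 difference 0.70), with sums of 28914, 22740, 24394 and 21915 CPM against 19218, 16570, 18215 and 11241 CPM. The median mitochondrial share of vessel nuclei was 1.62%, 1.17%, 1.39% and 0.604%, below that of members in every library. At most 1% mitochondrial UMIs, 1229 of 6652 tested genes differed. Of 17 endocardial marker genes outside the rule, 16 were higher and none lower, with a median edgeR log2 difference of 2.36 against 0.01 over all genes tested. The exception was Tbx20, a T-box transcription factor shared with cardiomyocytes, at 75, 61.2, 75.7 and 50.1 CPM in endocardial and 45.9, 67.6, 119.7 and 58.7 CPM in vessel nuclei, a log2 difference of -0.08 ± 0.18 (SE, adjusted p = 0.82).

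Cdh11, the cell adhesion molecule cadherin 11 (chr8:102632095-102785642 in mm10), stood at 1637, 1953, 1519 and 2317 CPM in endocardial nuclei and 8.85, 70.3, 24.7 and 114 CPM in vessel nuclei. It was found in 82.8%, 90.7%, 87.8% and 92.9% of members and in 3.09%, 9.19%, 7.73% and 12.6% of vessel nuclei, which had a lower median depth of 3238, 2713, 3225 and 2531.5 UMIs. Nrg1 (chr8:31814551-32884029) stood at 2196, 2183, 2315 and 1442 CPM against 1.61, 159, 47 and 39.8 CPM, a log2 difference of 5.45 ± 0.51 (SE, adjusted p = 1.06e-05). Every endocardial sum of both genes lay far above every vessel sum. Hmcn1, the large extracellular protein hemicentin 1, was the most abundant of the markers, at 7621, 5201, 7630.2 and 6368 CPM against 1120.0, 854, 1169 and 1049.8 CPM, a log2 difference of 2.75 ± 0.09 (SE, adjusted p = 3.03e-08). Vwf, the clotting factor carrier von Willebrand factor, stood at 649, 511, 529 and 550.1 CPM against 41, 123, 120.3 and 139 CPM. Gata4, a cardiac transcription factor, stood at 319, 329.7, 454 and 311 CPM against 39.4, 78.4, 81 and 67.3 CPM, and Plvap, a component of endothelial diaphragms, at 135, 263, 141 and 207 CPM against 8.85, 28.8, 22.9 and 39.8 CPM. The groups did not overlap for any of these 3 genes. For them, as for Cdh11 and Nrg1, the share of all genes separated in this way was not counted. Over all genes tested, 12.0% were called higher in endocardial nuclei. Nfatc1, the transcription factor of early endocardium and valves, was closer between the gates, at 112, 132, 193 and 88.2 CPM against 89.3, 65.8, 82.8 and 66.3 CPM, a log2 difference of 0.87 ± 0.15 (SE, adjusted p = 0.0014).

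**Figure D1:**
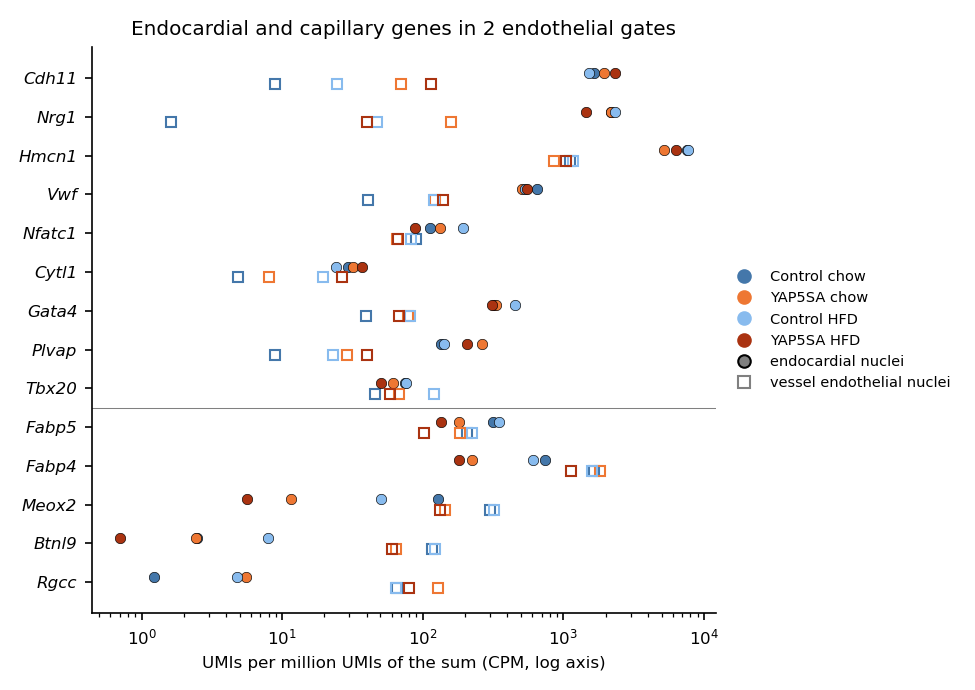
Level of 14 genes (rows) in CPM on a log axis, with filled circles for endocardial and open squares for vessel endothelial nuclei and 1 colour per library. Above the line, 8 of the 9 endocardial markers were higher in endocardial nuclei in the test, with Tbx20 as the exception; below it, 4 of the 5 capillary genes were lower and Fabp5 was higher (Rgcc in YAP5SA on HFD had 0 UMIs in endocardial nuclei and is not drawn).

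Further genes were named by the smallest of the 4 within-library folds, with the same direction required in all 4 libraries. Outside the markers above, those higher in endocardial nuclei were led by Rasgef1b, a guanine nucleotide exchange factor, at 893, 1000, 985 and 1198 CPM against 12.9, 37, 38.7 and 47.4 CPM. Slit3, a secreted guidance ligand of ROBO receptors, stood at 705, 842, 898 and 671 CPM against 8.05, 36, 56.9 and 41.7 CPM. Smoc1, a secreted calcium-binding matrix protein known from fly and frog work as a BMP modulator, stood at 299, 582, 331 and 733 CPM against 3.22, 46, 18.8 and 44.5 CPM. Hand2os1, the long noncoding RNA beside Hand2, was at 273, 325, 360.3 and 379 CPM against 9.66, 21.6, 22.9 and 25.6 CPM. Chrm3, a muscarinic acetylcholine receptor, was at 847, 661, 1210.5 and 743 CPM against 27.4, 18, 28.8 and 64.4 CPM, and Dpp4, a cell surface peptidase, at 172, 113, 179 and 214 CPM against 4.02, 1.8, 15.3 and 5.68 CPM. That each of these 6 genes was higher in endocardial nuclei in all 4 libraries follows from how they were chosen. On the higher side the same rule named Gm32743, 4932413F04Rik, Gm16226, Plagl1, Rai2, Sall1 and Kcnb2 beside Cdh11 and Nrg1. The lower side was led by Lrp1b, with log2 differences of -6.24 to -5.29 over 12 alternatives. After Lrp1b came Sema7a, Sybu, Btnl9, Ccdc85a, Rgcc, Gm12002, Cldn5, 9630013A20Rik, Mndal, Dach1, Gm29007, Fam78b, Ablim3 and Lrrc3b.

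Signalling genes of the BMP and TGF-beta list leaned to the endocardial side, with 10 of 19 tested genes higher and 3 lower and a median log2 difference of 0.67. Over all genes tested in this comparison, 12.0% were called higher and 13.2% lower. Among ligands, Bmp6 stood at 1358, 1487, 1265 and 1021 CPM against 238, 541, 271 and 394 CPM and Tgfb2 at 122, 221, 109 and 169 CPM against 36.2, 48.7, 31.1 and 55 CPM. Among receptors, Bmpr1a stood at 247, 351, 281 and 372 CPM against 38.6, 68.5, 48.7 and 60.6 CPM, a log2 difference of 2.62 ± 0.10 (SE, adjusted p = 3.84e-08). Eng, the co-receptor endoglin, stood at 871, 848, 893 and 788 CPM against 346, 451, 453 and 480.3 CPM. The inhibitory Smad6 was at 316, 399, 406 and 316 CPM against 47.5, 104, 113 and 101 CPM. Id1, a known BMP target, went the other way, at 50.4, 108, 70.9 and 62.8 CPM against 149, 149, 176 and 129.8 CPM, a log2 difference of -0.97 ± 0.16 (SE, adjusted p = 0.000795). Of the natriuretic and vasoactive list, 9 of 14 tested genes were higher and 2 lower (median 0.97). They included Edn1, the vasoconstrictor endothelin 1, at 138, 361, 113 and 76.9 CPM against 9.66, 64.9, 16.4 and 52.1 CPM. Nos3, the endothelial nitric oxide synthase, was at 357, 470.3, 364 and 391 CPM against 157, 176, 210.1 and 155 CPM. Calcrl, the receptor of adrenomedullin and related peptides, was at 1919, 1818, 1377 and 2042 CPM against 691, 1058, 605 and 1053 CPM. YAP target genes were higher for 10 and lower for none of 19 tested (median 0.86), also in the saline libraries, as Ccn2 shows at 32.0 CPM in control on chow and 40.5 CPM in control on HFD against 12.1 and 11.7 CPM in vessel nuclei.

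Genes of capillaries, the smallest vessels, were low in endocardial nuclei. Of 16 capillary genes, 15 were lower and 1, Fabp5, was higher (median log2 difference -2.53). Btnl9, a butyrophilin-like protein, stood at 2.46, 2.45, 8 and 0.705 CPM against 116, 64.9, 122 and 60.6 CPM. Fabp4, a fatty acid binding protein of capillaries, was less separated, at 740.5, 225, 603 and 182 CPM against 1639, 1829.5, 1591 and 1125 CPM, a log2 difference of -1.94 ± 0.26 (SE, adjusted p = 0.000174). Of 15 general endothelial genes outside the rule 8 were lower and 3 higher, with the tight junction protein claudin 5 (Cldn5) at 3.69, 13.5, 10.1 and 4.94 CPM against 107, 298, 127 and 114 CPM. Of 14 artery genes, 9 were lower and 3 higher. Of 15 Notch genes 8 were lower and 3 higher. Over all genes tested, 13.2% were called lower and 12.0% higher. The ligand Dll4 fell on the lower side, at 16, 12.2, 18.1 and 12.7 CPM against 34.6, 69.4, 44 and 61.6 CPM, and the receptor Notch1 on the higher side, at 224, 199, 231 and 179.8 CPM against 133, 132, 144 and 138 CPM. Of 15 tested genes of fatty acid handling and PPAR targets, 10 were lower and 1 higher. In each of 12 other settings, 15 or 16 markers were higher and 11 to 15 capillary genes lower, so some settings called fewer genes. Among the changes, Tbx20 was called lower when the fibroblast limit was left out, and Fabp5 was not called without control on HFD.

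The share of nuclei in the endocardial gate depended on the denominator. Of all nuclei that passed, endocardial nuclei made up 2.28% (exact Clopper-Pearson 95% interval 1.92% to 2.67%), 4.71% (4.27% to 5.17%), 4.39% (3.97% to 4.85%) and 3.54% (3.20% to 3.91%). Of endothelial nuclei they made up 18.6% (15.9% to 21.5%), 34.2% (31.5% to 37.0%), 22.6% (20.6% to 24.7%) and 29.9% (27.4% to 32.5%). The share of all nuclei was higher with YAP5SA on chow and lower with YAP5SA on HFD, while the share of endothelial nuclei was higher with YAP5SA on both diets. With 2 libraries against 2, the exact two-sided permutation test gave p = 0.333 for the share of endothelial nuclei, which is the smallest p this design allows, and p = 0.667 for the share of all nuclei. After thinning each nucleus to 1000 UMIs the endothelial shares were 20.2%, 30.6%, 29.4% and 31.5%, so that the 2 libraries on HFD lay closer together. The intervals cover counting error only, and the share of nuclei released from each tissue layer was not measured. The 3 endocardial genes of the rule summed to 32.8, 182, 65.7 and 24.9 CPM in macrophage nuclei, highest in YAP5SA on chow. In fibroblast nuclei they summed to 189, 471, 252 and 229 CPM. The part of free RNA of these genes in the shares was not tested.

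**Figure D2:**
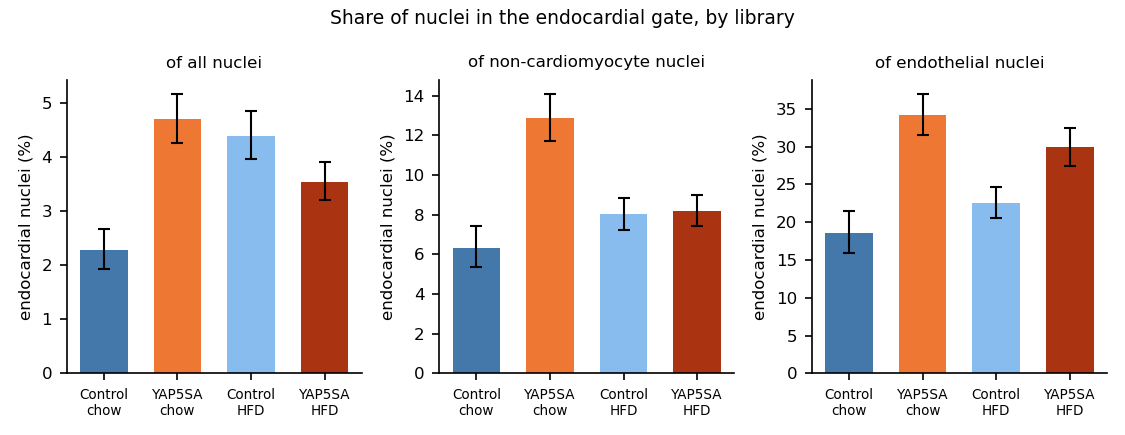
Endocardial nuclei as a percentage of all nuclei, of nuclei outside the cardiomyocyte gate and of endothelial nuclei in each of the 4 libraries (1 library per bar), with exact 95% intervals that cover counting error. Both YAP5SA bars are above both control bars in the right panel (34.2% and 29.9% against 18.6% and 22.6%) but not in the left one.

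Members were not uniform. Fabp4 was found in 53.8%, 29.2%, 49.3% and 33.9% of members, and in 24.1%, 10.8%, 23% and 16.4% after thinning to 1000 UMIs. Nrg1 was found in 41.0%, 27.7%, 40.7% and 22.5% of members with a Fabp4 UMI and in 61.2%, 50.2%, 57.2% and 46.6% of those without. The share was lower in the Fabp4 nuclei of every library although these were the deeper ones (medians of 5406, 4144, 4804 and 3702 UMIs against 4513, 3566, 4105 and 3400). Cdh11 was found in 75.6%, 85.7%, 80.8% and 92.2% of members with a Fabp4 UMI and in 91%, 92.7%, 94.7% and 93.2% of those without. These are shares of nuclei within a library, given as a description with no test. Among valve genes, Hapln1, a hyaluronan link protein, was found in 2.07%, 0.49%, 1.35% and 0.789% of members and Wnt9b, a Wnt ligand of valve endocardium, in 2.07%, 6.13%, 3.25% and 6.05%. Prox1, a lymphatic factor that the rule limits, was found in 13.8%, 8.09%, 23.3% and 11.3%.

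For YAP5SA against control, both YAP5SA libraries were compared with both controls, so that the diets stand as the replicates of an arm. With no label of separate animals beyond the library, the p-values measure the spread between these libraries. In edgeR's quasi-likelihood test 150 of 11080 genes passed an adjusted p of 0.05, which is 1.35% of those tested; 61 rose (0.551%) and 89 fell (0.803%). The count rests on few libraries: without YAP5SA on HFD 8 genes rose and 2 fell, without control on HFD 10 and 19, without control on chow 24 and 51, and without YAP5SA on chow 293 and 268. All 150 genes kept their direction in each of these 4 fits, and 3, 20, 66 and 144 of them passed the threshold again. Each of these fits reused libraries by which the 150 genes were chosen, so the kept direction is no separate support. Genes are named below from the lists and, for YAP5SA, as the 12 in each direction with the largest fold on the diet where the fold was smaller. Of these, 9 of 12 higher and 12 of 12 lower genes passed the test; without YAP5SA on HFD 3 (Nppb, Ccn2 and Ankrd1) and 0 of them passed, and without control on HFD 5 and 4. The lists were chosen with earlier results of these data known. The genes named by fold were picked from the same 4 sums that were tested, so the number that passed is no separate support.

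**Figure D3:**
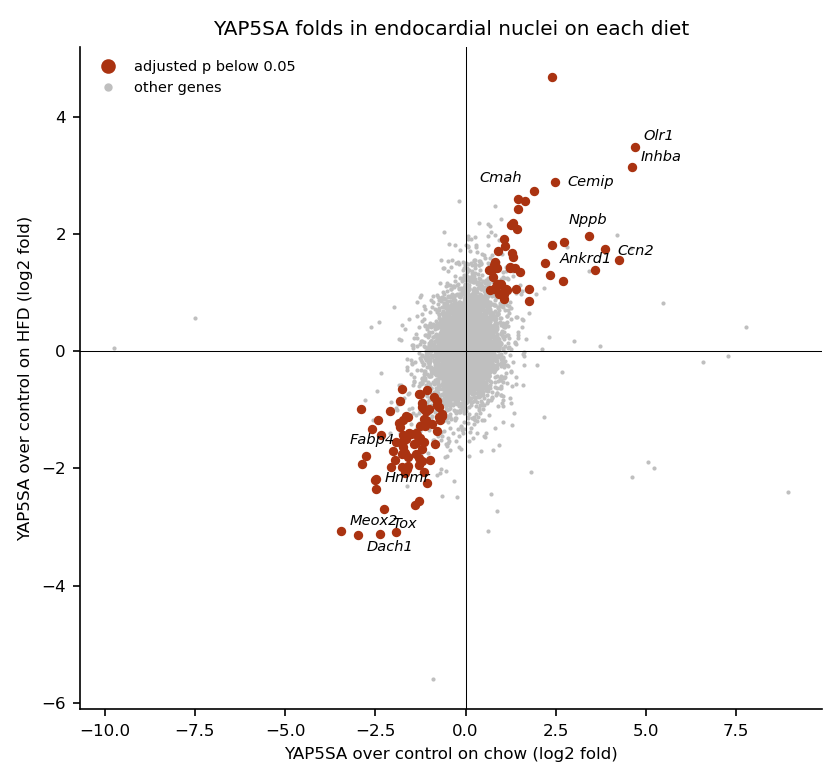
Log2 fold of YAP5SA over control on chow (horizontal) and on HFD (vertical) for the 7217 genes with a mean of at least 20 CPM in the endocardial sums, with 134 genes at an adjusted p below 0.05 in red. Red genes lie in the upper right and lower left, with Inhba and Olr1 at the far upper right and Dach1 and Meox2 at the far lower left.

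Olr1 and Inhba led the genes named by fold that rose. Inhba, which encodes the activin A subunit (chr13:16011851-16031621), stood at 7.38, 194, 28.8 and 255 CPM. Both YAP5SA libraries lay above both controls, as for 21.4% of genes with a mean of at least 20 CPM. Inhba was named for its folds in these same sums. Its log2 folds were 4.61 (3.58 to 6.18) on chow and 3.14 (2.73 to 3.59) on HFD (exact 95% count intervals in parentheses). The edgeR log2 difference was 3.4 ± 0.36 (SE, adjusted p = 0.00636). Inhba in the other nuclei was at 3.22, 22.5, 2.93 and 10.4 CPM in vessel, 0, 4.8, 0 and 15.4 CPM in macrophage, 20.4, 69.4, 23.7 and 53.8 CPM in fibroblast and 6.36, 111, 6.54 and 95.7 CPM in cardiomyocyte nuclei. Olr1, a scavenger receptor for oxidised LDL, was nearly undetected in controls, at 1.23, 47.1, 3.73 and 44.4 CPM, with an edgeR log2 difference of 3.91 ± 0.41 (SE, adjusted p = 0.00636). Cemip, a hyaluronan-binding protein, stood at 17.2, 98.5, 15.5 and 116 CPM (log2 difference 2.71 ± 0.24, adjusted p = 0.00592), with 4.12, 821, 5.81 and 604 CPM in cardiomyocyte and 0, 7.2, 0 and 23.4 CPM in macrophage nuclei. Cmah, an enzyme that makes the sialic acid Neu5Gc, was at 49.2, 184, 27.2 and 183 CPM (log2 difference 2.34 ± 0.26, adjusted p = 0.00785), while in macrophage nuclei it was at 287, 106, 302 and 219.7 CPM. Hs6st3, a heparan sulfate sulfotransferase, was at 8.61, 61.2, 16.5 and 60.7 CPM (log2 difference 2.13 ± 0.30, adjusted p = 0.0148), and Gm11342, a predicted gene, at 13.5, 73.4, 5.33 and 142 CPM (log2 difference 3.69 ± 0.44, adjusted p = 0.0107). Genes named by fold that missed the threshold were Pthlh, the parathyroid hormone-like hormone, at 1.23, 33.6, 14.9 and 59.9 CPM (adjusted p = 0.0908), Wnt9b at 3.69, 30.0, 11.7 and 40.9 CPM (adjusted p = 0.0545) and Tagln, a smooth muscle actin-binding protein, at 2.46, 74, 2.13 and 7.76 CPM (adjusted p = 0.101).

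Of 19 tested YAP target genes, 2 rose and none fell, with an edgeR median log2 difference of 0.26 against 0.00 over all genes. Of all genes tested, 0.551% rose. Ccn2, a matricellular protein (chr10:24595442-24598683), stood at 32, 475, 40.5 and 136 CPM, with log2 folds of 3.86 (3.33 to 4.52) on chow and 1.74 (1.36 to 2.15) on HFD and an edgeR log2 difference of 3.04 ± 0.52 (SE, adjusted p = 0.0268). Without control on HFD it was 3.24 with an adjusted p of 0.134, the highest over 14 alternatives, of which 2.6e-34 was the lowest. It was also higher with YAP5SA in the other gates, at 12.1, 149, 11.7 and 80.5 CPM in vessel and 12.3, 76.8, 24.7 and 41 CPM in macrophage nuclei, below the endocardial level, and at 33.9, 336, 39.7 and 150.2 CPM in cardiomyocyte nuclei. Ankrd1, a nuclear ankyrin repeat protein of muscle, stood at 28.3, 151, 21.9 and 77.6 CPM (log2 difference 2.23 ± 0.35, adjusted p = 0.0194), in the range of macrophage nuclei (41, 144, 41.1 and 127 CPM), while cardiomyocyte nuclei held 1017, 2735, 784 and 1571 CPM. Nppb, the B-type natriuretic peptide, stood at 14.8, 164, 17.1 and 67 CPM (log2 difference 2.83 ± 0.44, adjusted p = 0.019), again in the range of macrophage nuclei (36.9, 211, 43.1 and 62.3 CPM). Macrophages should lack both transcripts; the part of free cardiomyocyte RNA in these 2 results was not tested. Ccn1, a relative of Ccn2, was high in YAP5SA on chow alone, at 25.8, 349, 47.4 and 50.1 CPM, and missed the threshold (log2 difference 2.37 ± 0.71, adjusted p = 0.171). None of 16 tested Hippo and TEAD genes passed.

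A promoter window of Ankrd1 from RefSeq is shown because the gene is both a called target and one of 8 of the 17 matched YAP target genes whose window holds the TEAD core GGAATG. Windows run from 250 bases before to 50 bases after the start of a gene (GRCm38.p6, the assembly of mm10), and the capitals mark GGAATG or its reverse complement CATTCC, searched on both strands. Of 32851 windows of this length, 14.7% held the motif, as did 8 of 19 windows (42.1%) of the YAP target list and 12 of 58 (20.7%) of the genes that rose. The Ankrd1 window lies at chr19:36119795-36120094, on the minus strand, and holds 2 matches, 210 and 123 bases before the start. The Inhba window, searched in the same way, held no match. A match is a string of letters and no measured site.
Ankrd1: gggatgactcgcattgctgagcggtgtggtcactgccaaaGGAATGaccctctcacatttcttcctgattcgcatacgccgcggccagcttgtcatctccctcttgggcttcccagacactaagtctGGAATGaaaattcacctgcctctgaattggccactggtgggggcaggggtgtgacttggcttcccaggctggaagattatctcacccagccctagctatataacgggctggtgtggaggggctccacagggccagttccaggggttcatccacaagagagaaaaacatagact

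Further genes rose outside the YAP target list. Igfbp5, an IGF-binding protein, was the most abundant of them, at 915, 1932, 1191 and 2208 CPM (log2 difference 0.95 ± 0.18, adjusted p = 0.0388). Smoc1, in none of the lists but named above as a gene of endocardial over vessel nuclei, stood at 299, 582, 331 and 733 CPM (log2 difference 1.04 ± 0.17, adjusted p = 0.0258). Both were higher in both YAP5SA libraries than in both controls, as were 21.4% of genes with a mean of at least 20 CPM. Selp, the leukocyte adhesion receptor P-selectin, stood at 7.38, 39.1, 3.2 and 28.2 CPM (log2 difference 2.84 ± 0.45, adjusted p = 0.0194). Thbs1, the matrix protein thrombospondin 1, was at 4.92, 66.1, 12.3 and 32.4 CPM (log2 difference 2.34 ± 0.46, adjusted p = 0.044). Acta2, smooth muscle actin, was at 2.46, 58.7, 11.2 and 33.1 CPM (log2 difference 2.48 ± 0.48, adjusted p = 0.0431). Smooth muscle and pericyte genes, 8 in all with Acta2, summed to 87.3, 254, 109 and 178 CPM in members, higher with YAP5SA; the part of such cells in the Acta2 result was not tested. Ier3 of the immediate early list, at 2.46, 22, 4.26 and 17.6 CPM, and Ddit4 of the glucocorticoid list, at 4.92, 19.6, 3.73 and 22.6 CPM, were the only genes of those lists to pass among 15 and 11 tested. The share of all tested genes that rose was 0.551%.

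**Figure D4:**
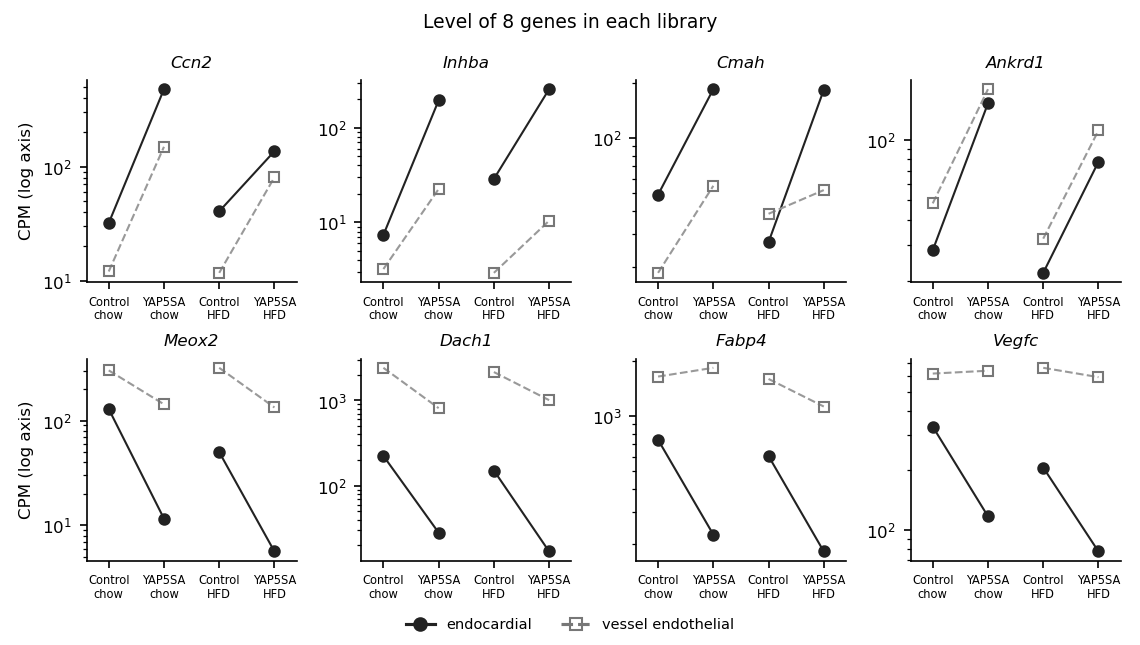
CPM (log axis) of 4 genes that rose and 4 that fell with YAP5SA, in each library, for endocardial nuclei (filled, solid lines) and vessel endothelial nuclei (open, dashed lines); lines join control and YAP5SA of a diet. Ccn2 and Ankrd1 are higher with YAP5SA in both gates, while Fabp4 and Vegfc are lower in endocardial nuclei and differ less in vessel nuclei.

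Meox2 and Dach1 led the genes named by fold that fell. Meox2, a homeobox factor known from capillaries (chr12:37108540-37179534), stood at 129, 11.6, 50.1 and 5.64 CPM, with log2 folds of -3.44 (-4.26 to -2.76) on chow and -3.07 (-4.40 to -2.11) on HFD and an edgeR log2 difference of -3.28 ± 0.51 (SE, adjusted p = 0.019). Dach1, a transcription factor known to promote coronary artery growth in mice (chr14:97786853-98169765), stood at 224, 28.1, 151 and 16.9 CPM, with log2 folds of -2.98 (-3.49 to -2.52) and -3.13 (-3.82 to -2.55) and an edgeR log2 difference of -3.03 ± 0.29 (SE, adjusted p = 0.00636). Both YAP5SA libraries lay below both controls for both genes, as they did for 22.4% of genes with a mean of at least 20 CPM. Their levels in vessel nuclei were 302, 143, 319 and 134 CPM for Meox2 and 2417, 813, 2155 and 1009 CPM for Dach1, above the endocardial level and also lower with YAP5SA. Ephb1, an ephrin receptor, was at 45.5, 8.56, 33.6 and 3.53 CPM (log2 difference -2.64 ± 0.42, adjusted p = 0.0194), and Tox, an HMG-box nuclear factor, at 35.7, 7.34, 43.2 and 6.35 CPM (log2 difference -2.54 ± 0.33, adjusted p = 0.0137). Enpp2, the enzyme autotaxin, was at 39.4, 6.73, 33.6 and 7.05 CPM (log2 difference -2.39 ± 0.34, adjusted p = 0.0148) and Pcdh19, a protocadherin, at 89.8, 15.9, 45.8 and 9.87 CPM (log2 difference -2.32 ± 0.39, adjusted p = 0.0258). Rgs6, a regulator of G protein signalling, and Grin2a, an NMDA receptor subunit, were at 30.7, 7.95, 74.1 and 8.46 and 60.3, 15.3, 109 and 29.6 CPM (adjusted p = 0.019 and 0.0303).

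Of 12 tested capillary genes 3 fell and none rose, with a median log2 difference of -1.0. The share of all tested genes that fell was 0.803%. Besides Meox2, Fabp4 (chr3:10204088-10208576) stood at 740.5, 225, 603 and 182 CPM, with log2 folds of -1.72 (-1.91 to -1.53) on chow and -1.73 (-1.93 to -1.53) on HFD (log2 difference -1.74 ± 0.20, adjusted p = 0.0087). Fabp5, a related fatty acid binding protein, stood at 314, 179.8, 351 and 135 CPM (log2 difference -1.09 ± 0.20, adjusted p = 0.0315). Summed over the 16 genes the list stood at 2271, 953, 1801 and 859 CPM in members and 6875, 5831, 6329 and 4196 CPM in vessel nuclei. It was also lower with YAP5SA on both diets in fibroblast nuclei (429.6, 287, 458 and 292 CPM) and macrophage nuclei (541, 508, 684 and 618 CPM). The same 3 genes were the called ones of 20 tested fatty acid and PPAR genes. Without YAP5SA on HFD none of the 3 passed, and without control on HFD or control on chow 2 did. At most 1% mitochondrial UMIs, a limit that leaves fewer members, the Fabp4 difference was -0.50 with an adjusted p of 0.772 (the adjusted p ranged from 6.71e-15 to 0.772 over 14 alternatives). Vegfc, a growth factor of lymphatic and coronary vessels, stood at 332, 117, 206 and 77.6 CPM (log2 difference -1.46 ± 0.27, adjusted p = 0.0374) and was the called gene of 12 tested artery and of 13 tested VEGF and angiopoietin genes. Fli1, an ETS factor of endothelium, stood at 1070.1, 561, 1242 and 524 CPM (log2 difference -1.11 ± 0.17, adjusted p = 0.0186), the 1 of 15 tested endothelial genes to pass. Wt1, the zinc finger factor listed among epicardial genes and also known in endothelium, stood at 137, 56.3, 146 and 40.9 CPM (log2 difference -1.55 ± 0.21, adjusted p = 0.0148). Fbln2, the matrix protein fibulin 2, stood at 465, 269, 462 and 243 CPM (log2 difference -0.87 ± 0.17, adjusted p = 0.0397).

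Genes of the cell cycle fell together. Of 22 tested genes of the cycling list 13 fell and none rose, while 0.803% of all tested genes fell. The list had an edgeR median log2 difference of -1.55 against 0.00 over all genes, and medians of -1.69 on chow and -1.51 on HFD. Of the 16 list genes with a mean of at least 20 CPM, 13 were at least 1.5-fold lower on both diets, as were 2.91% of all genes at that level (2.65% were as much higher on both). Mki67, the proliferation marker (chr7:135689784-135716361), stood at 79.9, 31.2, 93.8 and 34.6 CPM (log2 difference -1.43 ± 0.22, adjusted p = 0.0176) and was found in 11.7%, 6.86%, 15.2% and 6.05% of members, or in 5.52%, 1.47%, 5.96% and 2.37% after thinning to 1000 UMIs. Top2a, the mitotic topoisomerase, was at 159.9, 45.3, 185 and 74.8 CPM (log2 difference -1.56 ± 0.23, adjusted p = 0.0169). Kif11 and Kif23, motor proteins of the spindle and its midzone, were at 75, 18.3, 65 and 19.7 CPM (log2 difference -1.88 ± 0.24, adjusted p = 0.0137) and 61.5, 23.9, 88.5 and 26.1 CPM (log2 difference -1.64 ± 0.25, adjusted p = 0.019). Hmmr, a spindle-associated hyaluronan receptor, was at 41.8, 7.34, 37.3 and 7.05 CPM (log2 difference -2.45 ± 0.33, adjusted p = 0.0141), and Ect2, a factor of cell division, at 51.7, 12.2, 62.4 and 15.5 CPM (log2 difference -2.08 ± 0.27, adjusted p = 0.0137). Cenpf, Cenpe, Diaph3, Anln, Tpx2, Knl1 and Brip1 also fell, as did Aspm and Iqgap3 of the genes named by fold. In each of them both YAP5SA libraries lay below both controls, as for 22.4% of genes with a mean of at least 20 CPM. For genes already called as lower this is no separate support.

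The fall in cycling genes depended on the fibroblast limit, and the number called also on the mitochondrial limit and the libraries. With the fibroblast limit left out, none of 24 tested genes passed and the median was -0.38. The 754 nuclei it excludes held a summed cycling level of 1068, 1667, 1214 and 1519 CPM, higher with YAP5SA, against 1637, 669.7, 1763 and 791 CPM in members. The same nuclei held 17468, 9056, 13406 and 11462 CPM of endocardial markers and 2726, 2363, 3191 and 2892 CPM of fibroblast genes outside the rule. In fibroblast nuclei the cycling list stood at 1362, 2442, 1163 and 2648 CPM, in macrophage nuclei at 1409.5, 3658, 2147 and 4342 CPM and in vessel nuclei at 1893, 735, 1341 and 1040.3 CPM. The list was thus lower with YAP5SA in the endocardial and vessel gates and higher in the fibroblast and macrophage gates; the part of nuclei that hold RNA of 2 cell types was not tested. Without YAP5SA on HFD none of the 13 passed, without control on HFD 2, without control on chow 10, with 145 nuclei drawn from each library 1, and at most 1% mitochondrial UMIs 2 (Brip1 and Diaph3). The limit of 1% mitochondrial UMIs left 16, 102, 82 and 101 members. All 13 genes kept their direction in each of these fits, which reuse the libraries that chose them, so this is no separate support.

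**Figure D5:**
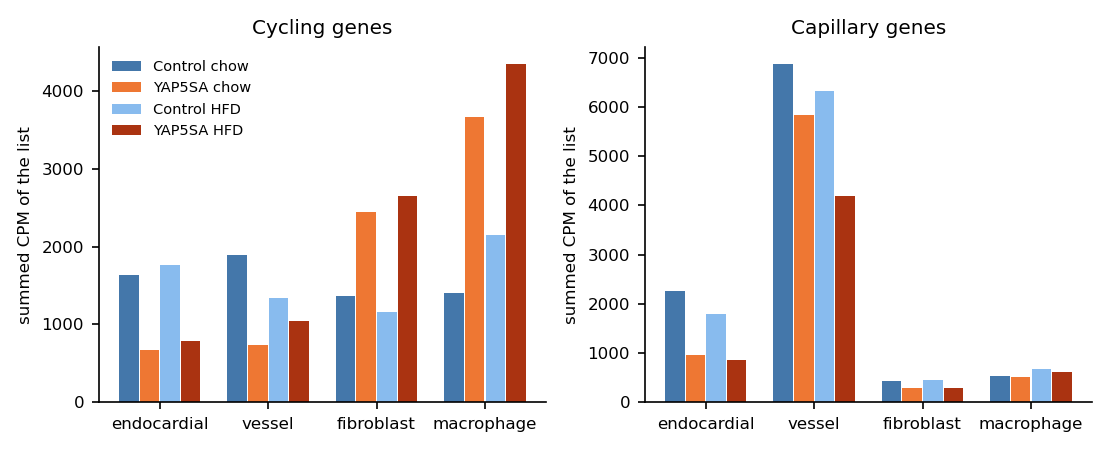
Summed CPM of the 24 cycling genes (left) and the 16 capillary genes (right) in 4 gates, 1 bar per library. Cycling genes are lower with YAP5SA in endocardial and vessel nuclei and higher in fibroblast and macrophage nuclei; capillary genes are lower with YAP5SA on both diets in all 4 gates.

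Promoter windows of cycling genes are shown because these genes moved together and many carry TTTGAA, the core of the cell cycle genes homology region, which sits close to the start of many mitotic genes. Capitals mark TTTGAA or its reverse complement TTCAAA, searched on both strands. Of all 32851 windows 17.9% held it, and of the 13 windows found for 12 of the 13 called cycling genes 10 did (76.9%). CCAAT or ATTGG was in 37.4% of all windows and in 11 of those 13 (84.6%). Cenpf (chr1:189688037-189688336) and Kif23 (chr9:61946750-61947049) have their match from base 3 after the start, Hmmr (chr11:40733388-40733687) from base 9, and Mki67 (chr7:135716330-135716629) has a pair of matches, 116 and 98 bases before it. All 4 lie on the minus strand of GRCm38.p6 and are printed 5′ to 3′ in the direction of the gene.
Cenpf: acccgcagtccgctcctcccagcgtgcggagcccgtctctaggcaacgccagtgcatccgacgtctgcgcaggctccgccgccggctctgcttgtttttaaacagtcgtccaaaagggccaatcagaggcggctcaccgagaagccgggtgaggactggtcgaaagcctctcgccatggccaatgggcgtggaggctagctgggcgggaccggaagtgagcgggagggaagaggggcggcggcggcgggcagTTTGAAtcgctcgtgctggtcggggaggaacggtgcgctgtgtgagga
Kif23: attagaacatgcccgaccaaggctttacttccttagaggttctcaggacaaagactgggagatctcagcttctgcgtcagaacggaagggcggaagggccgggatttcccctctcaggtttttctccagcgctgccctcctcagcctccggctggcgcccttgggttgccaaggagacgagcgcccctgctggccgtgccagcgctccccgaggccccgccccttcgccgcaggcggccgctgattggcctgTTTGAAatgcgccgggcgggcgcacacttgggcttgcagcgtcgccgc
Hmmr: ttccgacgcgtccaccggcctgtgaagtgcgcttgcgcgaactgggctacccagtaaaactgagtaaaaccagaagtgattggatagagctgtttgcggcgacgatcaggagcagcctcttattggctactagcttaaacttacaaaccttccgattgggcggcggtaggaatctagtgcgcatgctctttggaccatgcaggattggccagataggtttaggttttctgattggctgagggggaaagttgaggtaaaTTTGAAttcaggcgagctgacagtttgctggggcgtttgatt
Mki67: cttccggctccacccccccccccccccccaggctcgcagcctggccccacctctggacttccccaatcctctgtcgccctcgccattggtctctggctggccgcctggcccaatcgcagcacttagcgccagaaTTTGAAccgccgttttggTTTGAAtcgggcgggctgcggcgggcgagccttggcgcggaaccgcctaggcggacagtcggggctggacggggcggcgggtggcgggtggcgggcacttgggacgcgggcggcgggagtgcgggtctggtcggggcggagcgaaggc

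Markers of endocardial identity did not pass the YAP5SA test. None of the 17 endocardial markers outside the rule was called, with a median log2 difference of -0.08, while without YAP5SA on chow 1 fell and without a filter on low counts 2 rose, and their sum was 17397, 15892, 17429 and 15643 CPM. Nrg1 stood at 2196, 2183, 2315 and 1442 CPM, a log2 difference of -0.33 ± 0.21 (SE, adjusted p = 0.615), and none of 6 tested neuregulin and ERBB genes passed. No gene passed among 14 tested Notch, 18 BMP and TGF-beta, 15 natriuretic and vasoactive and 10 valve genes, nor among 13 tested clock genes. Of 28 extracellular matrix genes Thbs1 rose and Fbln2 fell. Of 20 tested cardiomyocyte genes outside the rule, a list that holds the natriuretic peptides Nppa and Nppb, 3 rose and 1 fell. Among all genes tested, 0.551% rose and 0.803% fell. Besides Nppb and Cemip, Nppa stood at 18.4, 123, 29.8 and 68.4 CPM (log2 difference 1.90 ± 0.34, adjusted p = 0.0315), with 45.1, 127, 51.4 and 54.9 CPM in macrophage nuclei. Myh6, the cardiomyocyte myosin, fell (169, 73.4, 164 and 84.6 CPM, log2 difference -1.09 ± 0.17, adjusted p = 0.0194), and its level in macrophage nuclei, which should lack it, was 234, 81.6, 257 and 103 CPM.

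Whether the YAP5SA difference itself differed between endocardial and vessel nuclei was tested with a gate by arm term over the 8 sums. Of 11747 genes 47 passed (0.4%), 11 (0.0936%) with a higher and 36 (0.306%) with a lower YAP5SA effect in endocardial nuclei. Neither of the fits without a YAP5SA library gave a call, while 133 genes passed without control on chow and 209 without control on HFD. Among capillary genes, Fabp4 had an interaction of -1.53 ± 0.18 (SE, adjusted p = 0.00149), with 1639, 1829.5, 1591 and 1125 CPM in vessel nuclei. Cd36, a fatty acid transporter, had -1.03 ± 0.19 (SE, adjusted p = 0.0273), at 230.0, 103, 174 and 124 CPM in endocardial and 1127, 1058, 694 and 1010.0 CPM in vessel nuclei. Vegfc had -1.35 ± 0.25 (SE, adjusted p = 0.0235), with a vessel level of 616, 637, 659 and 591 CPM that differed little between arms, and Dach1 -1.63 ± 0.27 (SE, adjusted p = 0.0152). Tox had -2.90 ± 0.39 (SE, adjusted p = 0.00388), at 33.8, 88.3, 66.3 and 48.3 CPM in vessel nuclei. No cycling gene passed among 24 tested, nor did Meox2, at -1.98 ± 0.48 (SE, adjusted p = 0.105).

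For other genes the interaction came with vessel sums that were higher with YAP5SA. Cdh11 was at 8.85, 70.3, 24.7 and 114 CPM in vessel nuclei and had an interaction of -1.90 ± 0.33 (SE, adjusted p = 0.0177). Bmp6 was at 238, 541, 271 and 394 CPM in vessel nuclei, with an interaction of -0.92 ± 0.17 (SE, adjusted p = 0.0238). Pde3a, a cyclic nucleotide phosphodiesterase, was at 2179.5, 1192, 2566 and 1583 CPM in endocardial and 142, 412, 296 and 454 CPM in vessel nuclei, with -1.80 ± 0.22 (SE, adjusted p = 0.00202). All 3 are genes of endocardial over vessel nuclei; the part of endocardial RNA in the vessel gate was not tested. Nrp2, a semaphorin and VEGF co-receptor, was the gene of the lists with a positive interaction, 0.87 ± 0.17 (SE, adjusted p = 0.0433), at 249.7, 339, 224 and 269 CPM in endocardial and 1332, 865, 988 and 758 CPM in vessel nuclei.

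For maternal diet, by the titles and with the arm as a term, no gene passed among 11080 (0.0%) in edgeR's quasi-likelihood test. An unadjusted p below 0.05 in that test was reached by 440 genes, a smaller share than the threshold alone would let through. DESeq2 called none either. The lowest adjusted p belonged to Elavl2, an RNA-binding protein, at 48, 93.6, 11.7 and 20.5 CPM, a log2 difference of -2.16 ± 0.28 (SE, adjusted p = 0.0583). Both HFD libraries were below both chow libraries, as for 11.7% of genes with a mean of at least 20 CPM. Eya1, a transcriptional co-activator, stood at 23.4, 17.7, 62.4 and 48.7 CPM (log2 difference 1.39 ± 0.28, adjusted p = 0.452), and Epha5, an ephrin receptor, at 29.5, 20.8, 80.5 and 52.2 CPM (log2 difference 1.34 ± 0.27, adjusted p = 0.452). Bmper, a BMP-binding protein, stood at 4.92, 15.9, 19.7 and 40.2 CPM (log2 difference 1.47 ± 0.38, adjusted p = 0.766). Bmp4 stood at 72.6, 110.1, 38.4 and 57.1 CPM (log2 difference -0.97 ± 0.23, adjusted p = 0.754) and Gpc4, a glypican, at 39.4, 41, 18.1 and 18.3 CPM (log2 difference -1.17 ± 0.30, adjusted p = 0.821). Others named by the rule included 1700024B18Rik, Agmo, Sugct, Lingo2 and Kntc1 as higher and Msh5, Htr2a, Fam155a and Caskin2 as lower with HFD.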

How the data were processed

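The authors deposited raw UMI counts per gene and barcode for 4 libraries (10x Genomics 3′ v3), made with Cell Ranger 7.1.0 on mm10 per the submitters' processing notes. Each matrix held 32291 features, 6 of them added sequences. No batch is named in the labels. Total depth was 43408234 to 61191454 UMIs per library before filters, and 813018 to 1876097 UMIs in the endocardial sums, so a gene at 20 CPM in control on chow rests on few UMIs.

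Nuclei were gated by the counts of fixed genes, given with the results, and UMIs were summed per library and gate. The sums were scaled by TMM and tested with edgeR 4.0.16 (filterByExpr, quasi-likelihood test, Benjamini-Hochberg adjusted p below 0.05) in R 4.3.3, after each fit had been tested on simulated data. The YAP5SA fit held the 4 endocardial sums with the arm as its only term, the diet fit added the diet, the vessel fit had the library as a block, and the interaction fit added the gate by arm term to it. Log2 folds on one diet compare 2 libraries, with a prior of 0.5 counts and exact conditional binomial 95% intervals. Python 3.11.15, scipy 1.17.1 and scanpy 1.11.5 were used. Nuclei called by Scrublet were left out only as an alternative; its automatic threshold marked under 0.5% of nuclei in both chow libraries, where the top scores at 0.8% per 1000 nuclei were taken instead. Intervals and floors cover counting error only.

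Named genes were members of the lists, up to 12 (YAP5SA) or 8 (diet) genes per direction with the largest smaller fold over the 2 replicate contrasts at a mean of at least 20 CPM, and up to 15 per direction for endocardial over vessel at a mean of at least 50 CPM. For the first 2 comparisons both count intervals had to exclude no difference; mitochondrial and Y-linked genes, Xist, Tsix and added sequences were left out. One gene that the rule named is not reported here. The members, rule and lists were chosen with earlier results of these data known. Alternatives were DESeq2 1.42.0 (size factors, Wald test), no filter on low counts, other limits on nuclei, doublets, gates, depth and libraries, a diet term, and, chosen after seeing the data, the gates without a fibroblast limit.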

Additional observations from a re-analysis of the deposited data

Results flagged for a closer look

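The YAP5SA effect differed between endocardial and vessel nuclei for 12 named genes, by the gate by arm term of edgeR's quasi-likelihood test with Benjamini-Hochberg adjustment. The endocardial minus vessel difference was log2 -1.531 for Fabp4, -1.029 for Cd36, -1.634 for Dach1, -2.901 for Tox and -1.345 for Vegfc. It was 0.8732 for Nrp2, and -1.899 for Cdh11, -0.9177 for Bmp6 and -1.795 for Pde3a, whose vessel sums were higher with YAP5SA. Myof, a membrane repair protein of the YAP target list, had -1.656, at 99.6, 105, 80.0 and 114 CPM in endocardial and 12.9, 64, 17.6 and 60.6 CPM in vessel nuclei. Igfbp3, an IGF-binding protein, had -2.546, at 20.9, 23.9, 44.2 and 24 CPM in endocardial and 17.7, 132, 29.3 and 73 CPM in vessel nuclei. Sparcl1, a secreted matrix protein, had -1.295, at 72.6, 29.4, 54.9 and 23.3 CPM in endocardial and 452, 486, 382 and 388 CPM in vessel nuclei. Of these 12 genes none passed without either YAP5SA library or at most 1% mitochondrial UMIs, and 4 passed without the fibroblast limit.

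One of the 6 sequences added to the reference, named nsp13, had 0, 4, 0 and 0 UMIs in endocardial nuclei, with all 4 in YAP5SA on chow, against 0, 513, 1 and 201 in cardiomyocyte nuclei. The sources used here do not say what this sequence is.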

How the results depend on the processing

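Among the reported results, no called value changed its direction in the alternatives run. The YAP5SA count of 150 genes became 587 without a filter on low counts, 22 at most 1% mitochondrial UMIs, 260 without the fibroblast limit and 63 with equal numbers of nuclei, and ranged from 10 to 561 when 1 library was left out. Of the 150 genes, 112 of 148 tested passed DESeq2's Wald test, and 1 of 124 tested had the other sign at most 1% mitochondrial UMIs. The diet count of 0 became 42 without a filter on low counts, 7 at most 1% mitochondrial UMIs and 1 without the fibroblast limit. The count of 2691 genes between endocardial and vessel nuclei became 1229 at most 1% mitochondrial UMIs. The interaction count of 47 became 195 without a filter, 7 at most 1% mitochondrial UMIs and 90 with the endocardial gate at 5 UMIs, and ranged from 0 to 209 when 1 library was left out. The cause of these changes was not tested. The endocardial share of all nuclei became 0.304%, 1.42%, 1.28% and 1.07% at most 1% mitochondrial UMIs, 4.13%, 6.46%, 7.68% and 5.48% without the fibroblast limit, and 1.58%, 2.85%, 3.46% and 2.50% after thinning to 1000 UMIs. No paired analysis by replicate number was possible because each group is 1 library and the labels give no such numbers; with diet as a term, which sets the libraries of a diet side by side, 93 genes rose and 112 fell with YAP5SA, and 149 of the 150 were called. Control on chow, with 145 nuclei, sets the precision of every YAP5SA comparison on chow. Fits that leave out a library keep 1 sample in an arm, which is assumed to vary like the others.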
